A study of Mus musculus with 2 samples.

Results

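The genes described here, apart from Fut4-ps1, encode the Golgi glycosyltransferases of 11 families. These enzymes build the sugar chains of secreted and membrane glycoproteins and of glycolipids. Members were all probe sets, other than Affymetrix controls, with 1 gene symbol in the platform annotation that began with Fut, St3gal, St6gal, St8sia, Galnt, Gcnt, Mgat, B3gnt, B3galt or B4galt followed by a digit or by "nac". B4galt1, whose protein pairs with alpha-lactalbumin to make lactose, was left out. The rule took 165 of 45037 probe sets, for 78 of 18193 named genes. Fut4-ps1, annotated as a pseudogene, met the rule and is counted as a member gene throughout. A gene was called measured when its signal on the brighter array exceeded 77.7, the median over both arrays, and 93 probe sets and 56 genes passed. Lower signals were set to this value, called the floor, so that the fold of a gene below it on 1 day is only a bound ("at least"), and each gene is represented by its probe set with the highest mean signal. The other 22 genes had no probe set above that floor. Just above it lay Gcnt3 (brighter signal 89.4), B4galt4 (90.9) and Fut2 (91.3), and just below it Galnt9 (76.7), Galnt6 (71.2) and Mgat4c (70.2).

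Mammary gland RNA was compared between day 1 of involution, when the gland regresses after suckling stops, and day 0, the day of forced weaning. The day 1 group was RNA pooled from 5 female CD1 mice taken at day 1, counted from the removal of their pups at day 10 of lactation. The day 0 group was RNA pooled from 5 female CD1 mice taken on the day of weaning, also at day 10 of lactation. All were CD1 animals bought at 6 weeks of age, with litters set to 6 pups and with no other treatment or allele named in the labels, which give no age at sampling. Each pool was hybridised to 1 Affymetrix Mouse Genome 430 2.0 array. There was thus 1 array per day, no replicate error and no test of any difference. Pooling hides the spread between mice. In a whole gland, fewer cells of a type and less RNA per cell cannot be told apart.

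Glycosyltransferases take a sugar from an activated donor, such as CMP-sialic acid, GDP-fucose or UDP-galactose, and add it to a growing chain as the protein or lipid moves through the Golgi. Mucin-type O-glycans are begun by the Galnt enzymes and branched by the Gcnt enzymes, N-glycans are branched by the Mgat enzymes, chains are lengthened by the B3gnt, B3galt and B4galt enzymes, and their ends are capped with fucose by the Fut enzymes and with sialic acid by the St3gal, St6gal, St6galnac and St8sia enzymes. In the lactating gland these enzymes act on secreted milk proteins, on the mucins of the milk fat globule membrane and, for some sialyltransferases, on lactose itself to give sialyllactose, the main acidic oligosaccharide of mouse milk.

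Signals are the deposited MAS 5 values, a linear brightness per probe set, and a signal is compared here only with that of the same probe set on the other day. The day 1 array had a median signal of 60.1 and the day 0 array one of 94.2, and 44.5% and 55.4% of their probe sets lay above the floor. Bacterial transcripts spiked into each hybridisation, read by 15 probe sets away from the top of the range, had a median log2 ratio of day 1 over day 0 of -1.16, with a range of -2.14 to -0.50. A further set of 24 control probe sets, for polyadenylated transcripts, had a median of -1.33 and a range of -1.68 to -0.77. It was not used for scaling. With the arrays scaled on the 15 hybridisation controls, the median over all measured genes was 0.97 log2, against -0.12 in the deposited values. Directions below are those of the deposited values and are best read against that median. No member probe set had a signal above 50% of the highest on its array.

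Most measured glycosyltransferase genes had lower signals on day 1, and the largest differences lay among the sialyltransferases. St6galnac1, an enzyme that puts sialic acid on the first sugar of O-glycans, was at least 34.3-fold lower on day 1. St6galnac3, which acts on already sialylated O-glycans and glycolipids, was 5.61-fold lower, St6gal1, which caps the antennae of N-glycans with sialic acid, 5.10-fold lower and Fut4, an enzyme of Lewis X synthesis, 4.55-fold lower. In the other direction Galnt2, an initiator of O-glycans, was 2.82-fold higher and the galactosyltransferase gene B4galt3 2.77-fold higher. Of the 56 measured genes, 13 (23.2%) were at least 2-fold lower on day 1, beside 13.3% of all 13239 measured genes, and 5 (8.93%) were at least 2-fold higher, beside 10.4%. A log2 ratio below 0 was found for 42 of the 56 (75%), beside 56.7% of all measured genes. The median log2 ratio of the measured members was -0.49, against -0.12 for all measured genes. It was -0.50 over the 39 members whose signals exceeded the floor on both days, against 0.025 for the 9768 genes of that kind.

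These shares depended on the scaling. Counts of higher and lower members, 5 and 13 as deposited, were 8 and 11 after median centring, 6 and 11 after quantile normalization, 8 and 11 after loess, 5 and 12 after scaling on housekeeping genes, 10 and 7 after scaling on ribosomal protein genes, and 16 and 4 after scaling on the hybridisation controls. Quantile normalization, loess and the last of these left 52 members measured. With the last, the median of the members was 0.58 and that of all measured genes 0.97. In all 6 scalings the median of the members lay below that of all measured genes, by 0.34 to 0.44 log2.

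**Figure D1:**
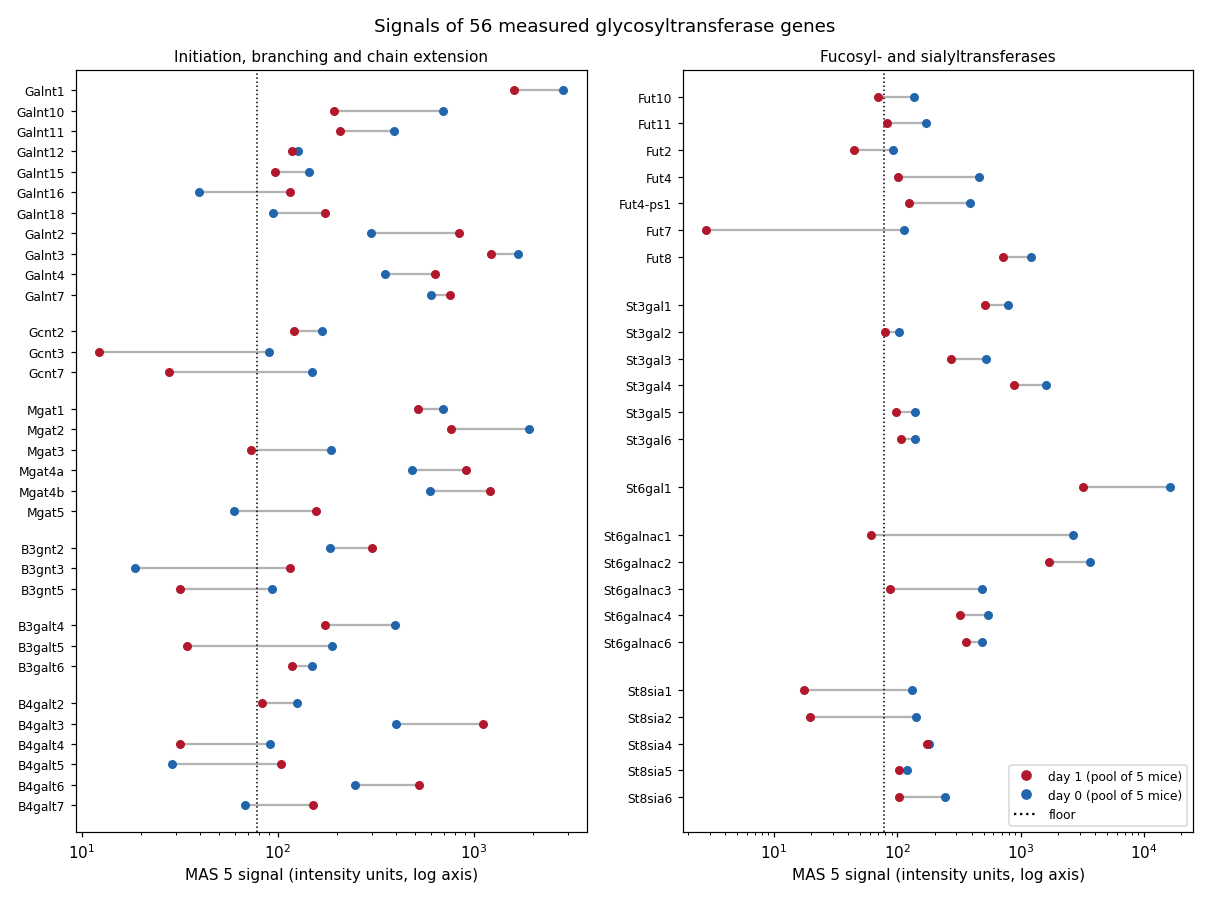
MAS 5 signals, on a log axis, of the 56 measured glycosyltransferase genes on day 1 (red) and day 0 (blue), with 1 point per array and gene; genes are grouped by family, the dotted line is the floor of 77.7, and each array is a pool of 5 mice. In the right-hand panel every day 1 point lies left of its day 0 point, from St6galnac1 (61.5 on day 1, 2665.2 on day 0) to St8sia4 (172.2 on day 1, 179.7 on day 0).

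Among the enzymes that begin mucin-type O-glycans, the Galnt family differed from gene to gene. Of its 16 genes, 11 were measured. Past 2-fold, 1 was higher (9.09%, beside 10.4% of all measured genes) and 1 lower (9.09%, beside 13.3%), and 6 had a log2 ratio below 0. Galnt2, one of the widely expressed initiating enzymes, had a signal of 836.5 on day 1 against 296.8 on day 0. All 3 of its probe sets were higher on day 1, by 2.06-fold to 2.82-fold. Galnt10, which prefers peptides that already carry a sugar, had 192.6 on day 1 and 691.2 on day 0 and was 3.59-fold lower. Its other measured probe set differed by only 1.31-fold in the same direction. Galnt1, another widely expressed initiating enzyme, had 1594.0 on day 1 and 2857.7 on day 0 and was 1.79-fold lower. Galnt3, an enzyme of epithelia, had 1224.5 on day 1 and 1671.8 on day 0 and was 1.37-fold lower.

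Members short of 2-fold also lay on both sides of 0. Galnt4 had 635.4 on day 1 and 350.2 on day 0 (0.86 log2), and Galnt18 had 174.1 on day 1 and 94.3 on day 0 (0.88 log2). Galnt11, an enzyme known to act on Notch1, had 206.1 on day 1 and 392.1 on day 0 (-0.93 log2), and its other probe set was at least 3.42-fold lower. Galnt12 had 118.0 on day 1 and 126.7 on day 0, and Galnt15 95.9 on day 1 and 143.3 on day 0. Galnt16 was at the floor on day 0 and had a signal of 115.6 on day 1. Its bound of at least 1.49-fold higher does not place it short of 2-fold. The family median of -0.10 log2 was above 0 after median centring (0.016), loess (0.18), quantile normalization (0.21), ribosomal protein scaling (0.33) and hybridisation control scaling (1.06). Galnt5, Galnt6, Galnt9, Galnt13 and Galnt14 were not measured.

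The Gcnt enzymes add the branches of O-glycans and of I antigens. None of the 3 measured genes was shown to pass 2-fold at this floor, beside 10.4% of all measured genes higher and 13.3% lower. At the probe sets used, all 3 had lower signals on day 1 as deposited, beside 56.7% of all measured genes. Gcnt2, the I-branching enzyme, had 121.1 on day 1 and 167.5 on day 0. Gcnt3 and Gcnt7 were at the floor on day 1, with day 0 signals of 89.4 and 148.5. Gcnt7 was at least 1.91-fold lower, and had -2.42 log2 with a floor at the 25th percentile. The family median of -0.47 log2 was 0.13 under hybridisation control scaling and -1.24 with the lower floor. Gcnt1, the core branching enzyme of leukocytes, was not measured.

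In the N-glycan branching family Mgat, 3 of the 6 measured genes had lower signals on day 1 at the probe sets used and 3 had higher signals. Mgat1, which starts hybrid and complex N-glycans, had 516.0 on day 1 and 690.2 on day 0, a 1.34-fold difference. Mgat2, which opens the second arm of complex N-glycans, had 767.0 on day 1 and 1900.8 on day 0 and was 2.48-fold lower, although its other measured probe set was only 1.24-fold lower. Mgat3, the enzyme of the bisecting sugar, had 72.6 on day 1, below the floor, and 186.3 on day 0, so that it was at least 2.40-fold lower.

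The genes of the outer branches had higher signals on day 1 at the probe sets used. Mgat4b had 1210.7 on day 1 and 594.7 on day 0, a 2.04-fold difference at its single probe set. Mgat4a, the other gene of this branching step, had 904.9 on day 1 and 482.9 on day 0 (0.91 log2), but its other probe set had 119.0 on day 1 and 243.6 on day 0 (-1.03 log2), so that the gene has no settled direction. Mgat5, whose branch carries the long lactosamine chains bound by galectins, had 155.6 on day 1 and 59.6 on day 0, below the floor. The bound of at least 2.00-fold higher lies at the threshold, and the other measured Mgat5 probe set was at least 1.49-fold higher. The family median of 0.24 log2 was below 0 with a lower floor, which adds dimmer genes (-0.69), and with the mean of all measured probe sets of a gene (-0.24). Mgat4c, Mgat4d, Mgat4e and Mgat5b were not measured.

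Promoter windows are shown for the members with the 2 largest differences in each direction for which the RefSeq promoter table (GRCm38.p6) has an entry, namely St6galnac3, St6gal1, B4galt3 and Mgat5. The table matched 56 of the 78 member genes and 39 of the 56 measured ones. Each window is the 250 bases before an annotated start site, and capitals mark letters that match 1 of 5 motifs on either strand, TTCNNNGAA (Stat factors), TGANTCA (AP-1), CACGTG (E box), CCAAT and GGGCGG (GC box). Mgat5 has 1 window, on the plus strand at chr1:127204736-127204985, with a CCAAT match and a GC box.
Mgat5 promoter: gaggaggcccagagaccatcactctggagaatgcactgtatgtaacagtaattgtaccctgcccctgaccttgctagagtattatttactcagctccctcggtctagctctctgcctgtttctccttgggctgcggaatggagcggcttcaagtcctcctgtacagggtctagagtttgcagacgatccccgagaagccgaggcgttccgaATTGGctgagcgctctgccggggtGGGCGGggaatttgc

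The B4galt enzymes extend chains with galactose, and all 6 genes were measured. Past 2-fold, 2 of 6 were higher, beside 10.4% of all measured genes, and 0 lower, beside 13.3%. A log2 ratio below 0 was found for 2 of 6, beside 56.7% of all measured genes. B4galt3 had 1104.6 on day 1 and 399.0 on day 0 and was 2.77-fold higher, its dim other probe set being below the floor on both arrays. B4galt6, a lactosylceramide synthase, had 525.1 on day 1 and 247.9 on day 0, a 2.12-fold difference. Its other 3 probe sets were higher by 1.28-fold, by 1.44-fold and by at least 3.58-fold. B4galt5, the other lactosylceramide synthase, was at the floor on day 0 and had 103.6 on day 1.

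B4galt7, which makes the linker of proteoglycan chains, had 150.8 on day 1 and 68.1 on day 0 at the probe set used, and 46.2 on day 1 and 114.4 on day 0 at its other probe set. The name of the first marks probes that may also bind other transcripts, and the probe sets point opposite ways. B4galt2 had 83.0 on day 1 and 124.6 on day 0 (-0.59 log2), and B4galt4 was at the floor on day 1 with 90.9 on day 0. The family median was 0.69 log2 as deposited and 0.72 to 1.61 under the 6 scalings, but 0.31 with the mean of measured probe sets and 0.26 over the genes left without shared probe sets. The B4galt3 window lies on the plus strand at chr1:171270078-171270327 and holds a GC box near the start site.
B4galt3 promoter: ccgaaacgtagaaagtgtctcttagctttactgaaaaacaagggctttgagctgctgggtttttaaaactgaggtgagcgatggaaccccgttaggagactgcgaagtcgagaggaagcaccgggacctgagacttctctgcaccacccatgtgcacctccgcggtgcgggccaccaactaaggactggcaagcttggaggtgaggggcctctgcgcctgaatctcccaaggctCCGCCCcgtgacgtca

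The B3gnt enzymes extend lactosamine chains, and few were measured. B3gnt2, the main polylactosamine enzyme, had 302.0 on day 1 and 183.5 on day 0, a 1.65-fold difference. B3gnt3, which extends core 1 O-glycans, had 115.3 on day 1 and 18.5 on day 0, and with the day 0 signal at the floor it was at least 1.48-fold higher. B3gnt5, the first enzyme of lacto-series glycolipids, had 31.5 on day 1 and 93.1 on day 0 and was at least 1.20-fold lower. The median of these 3 genes was 0.57 log2. A lower floor adds dimmer genes of the family and gave a family median of -0.76, and without shared probe sets B3gnt5 alone was left (-0.26). B3gnt4, B3gnt6, B3gnt7, B3gnt8 and B3gnt9 were not measured.

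All 3 measured B3galt genes had lower signals on day 1, beside 56.7% of all measured genes. B3galt4, a ganglioside galactosyltransferase, had 174.1 on day 1 and 395.5 on day 0 and was 2.27-fold lower. B3galt5, which makes type 1 chains of epithelia, had 34.3 on day 1 and 188.6 on day 0. It was at least 2.43-fold lower at this probe set and at least 2.56-fold lower at its other measured one. B3galt6, a second enzyme of the proteoglycan linker, had 118.4 on day 1 and 148.6 on day 0 (-0.33 log2). The family median of -1.18 log2 kept its sign under the 6 scalings but was -0.021 on the hybridisation controls. B3galt1 and B3galt2 were not measured.

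**Figure D2:**
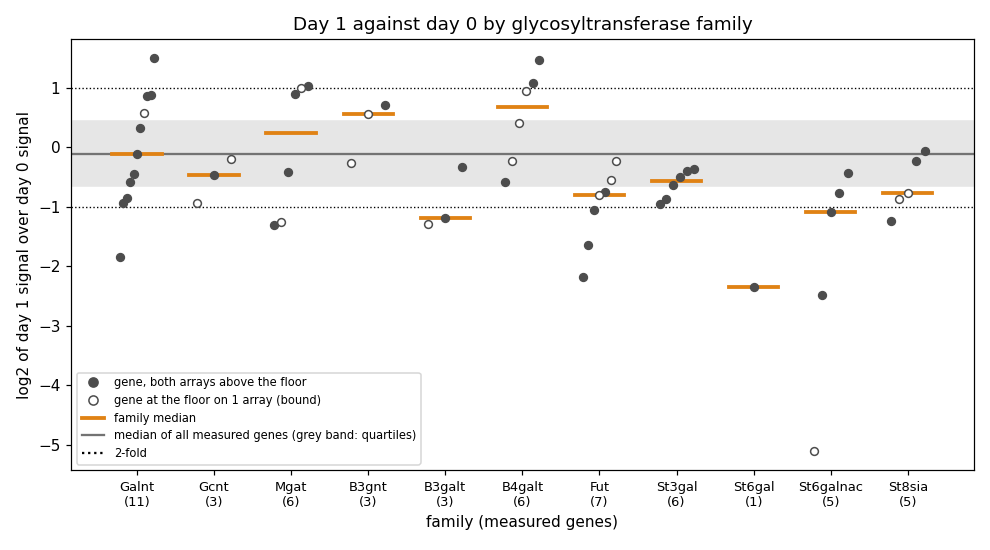
Ratio of day 1 over day 0 (log2) of each measured gene (points) by family, with the family median (orange bar), the median of all measured genes (grey line, -0.12) and their quartiles (grey band, -0.64 to 0.44); open points are bounds with 1 array at the floor, dotted lines mark 2-fold, and the number under each family is that of its measured genes. All points of the Fut, St3gal, St6gal, St6galnac and St8sia families lie below 0 in these deposited values, whereas the B4galt median is 0.69.

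Signals of the Fut family were lower on day 1 in all 7 measured genes as deposited, beside 56.7% of all measured genes. Of these, 3 were at least 2-fold lower, beside 13.3%. Both counts include the pseudogene Fut4-ps1. Fut4, an enzyme that places fucose in Lewis X structures of leukocytes and epithelia, had 100.4 on day 1 and 456.7 on day 0, so that the day 1 signal was close to the floor. The second Fut4 probe set was at the floor on day 1 and had 89.5 on day 0. A transcript annotated as a pseudogene of the same gene, Fut4-ps1, had 123.6 on day 1 and 386.6 on day 0 and was 3.13-fold lower. Whether its probes read Fut4 transcripts was not tested. Fut11 had 81.6 on day 1 and 169.1 on day 0, a 2.07-fold difference that became 0.11 log2 in the other direction under hybridisation control scaling.

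Fut8, which adds core fucose to N-glycans, had 715.9 on day 1 and 1202.4 on day 0 and was 1.68-fold lower, and its other measured probe set was at least 2.60-fold lower. Fut2, the secretor enzyme, had 44.5 on day 1 and 91.3 on day 0, and Fut7, the enzyme of leukocyte sialyl Lewis X, had 2.8 on day 1 and 113.8 on day 0. Both were at the floor on day 1, which leaves bounds of at least 1.18-fold and at least 1.46-fold lower. Fut10 was likewise at least 1.75-fold lower, with 69.6 on day 1 and 135.8 on day 0. The family median of -0.81 log2 was 0.034 under hybridisation control scaling. Fut1 and Fut9 were not measured.

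Sialyltransferases of the 4 families had 20 genes, of which 17 were measured. All 17 had a lower signal on day 1, beside 56.7% of all measured genes, and 5 of the 17 (29.4%) were at least 2-fold lower, beside 13.3%. Their median was -0.77 log2, and that of the 39 measured members of the other families was -0.33. The sign of all 17 held under none of the 6 scalings. Below 0 were 16 of 17 after median centring and housekeeping scaling, and 13 of 17 after quantile normalization, loess and ribosomal protein scaling. On the hybridisation controls 6 of 17 were below 0, and the median of the 17 was 0.30. Under that scaling 16 of 17 still lay below the median of all measured genes, as they did in the deposited values, whereas 13 of 17 did after quantile normalization and after loess.

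St6galnac1, the enzyme of the sialyl-Tn antigen, had 61.5 on day 1 and 2665.2 on day 0. This rests on 1 probe set, since the other St6galnac1 probe set was below the floor on both arrays, with 3.0 on day 1 and 21.5 on day 0. Under the other settings the log2 ratio of the first ranged from -5.44 to -3.41. St6galnac2, which sialylates core 1 O-glycans, had 1705.0 on day 1 and 3624.9 on day 0, a 2.13-fold difference that was 0.075 log2 in the other direction on the hybridisation controls. St6galnac3 had 87.2 on day 1 and 489.0 on day 0, and its other measured probe set had 91.5 on day 1 and 170.2 on day 0, so that the 2 probe sets gave 5.61-fold and 1.86-fold.

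St6galnac4 had 319.7 on day 1 and 545.5 on day 0, and St6galnac6, an enzyme of gangliosides, had 361.9 on day 1 and 488.0 on day 0. Neither was 2-fold different. The family median was -1.09 log2, with 3 of 5 measured genes at least 2-fold lower (13.3% of all measured genes), and 0.075 on the hybridisation controls. St6galnac5, a brain ganglioside enzyme, was not measured. The St6galnac3 window lies on the minus strand at chr3:153725134-153725383. It holds an E box and a GC box and is rich in G and C (64.8%, against a median of 52.4% over all windows).
St6galnac3 promoter: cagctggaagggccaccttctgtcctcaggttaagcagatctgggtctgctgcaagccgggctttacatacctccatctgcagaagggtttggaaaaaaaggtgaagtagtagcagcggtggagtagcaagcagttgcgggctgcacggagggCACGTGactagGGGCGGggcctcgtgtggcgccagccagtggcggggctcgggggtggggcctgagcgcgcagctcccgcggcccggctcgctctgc

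St6gal1 had 3198.8 on day 1 and 16304.7 on day 0 and was 5.10-fold lower. Its other probe set had 317.7 on day 1 and 2451.9 on day 0 and was 7.72-fold lower. Both were well above the floor on each day, and the log2 ratio of the gene lay between -2.65 and -1.19 in all settings tried, the last on the hybridisation controls. In knockout mice St6gal1 is known as the enzyme needed for one of the sialyllactoses of milk. The gene is known to be transcribed from several promoters, one of them described in lactating mouse mammary gland, and the array does not tell the starts apart. The RefSeq table gives 3 windows, all on the plus strand, at chr16:23224490-23224739, chr16:23225771-23226020 and chr16:23290220-23290469. They are shown in this order, with a CCAAT match in each and, in the last, an AP-1 match that shares 1 base with a second CCAAT match.
St6gal1 promoter window 1: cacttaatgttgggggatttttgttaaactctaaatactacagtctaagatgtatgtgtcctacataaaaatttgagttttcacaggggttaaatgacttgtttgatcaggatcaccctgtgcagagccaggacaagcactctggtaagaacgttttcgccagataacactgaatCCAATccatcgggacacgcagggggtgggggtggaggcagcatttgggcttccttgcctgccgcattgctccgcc
St6gal1 promoter window 2: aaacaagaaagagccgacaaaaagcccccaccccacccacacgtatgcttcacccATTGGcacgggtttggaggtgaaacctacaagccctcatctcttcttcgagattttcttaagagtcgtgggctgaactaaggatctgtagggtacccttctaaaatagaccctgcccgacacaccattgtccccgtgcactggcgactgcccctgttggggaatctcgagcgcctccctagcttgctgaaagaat
St6gal1 promoter window 3: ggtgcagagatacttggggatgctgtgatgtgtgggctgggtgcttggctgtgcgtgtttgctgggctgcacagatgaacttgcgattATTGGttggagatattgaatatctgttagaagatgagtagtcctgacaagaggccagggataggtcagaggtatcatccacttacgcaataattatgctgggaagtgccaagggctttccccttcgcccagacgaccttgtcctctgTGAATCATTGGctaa

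Matches of CCAAT and of the GC box were common in windows of the same length, and those of the other motifs were rarer. Of all 32851 windows, 33.8% held CCAAT, 32.7% a GC box, 6.75% TGANTCA, 6.02% CACGTG and 7.02% TTCNNNGAA. Of the 56 windows of measured members, 32.1%, 51.8%, 7.14%, 3.57% and 5.36% did, in the same order, and their median share of G and C was 59.4%. None of the 6 windows shown held TTCNNNGAA, which says only that these letters are not in them.

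The 6 St3gal genes were all measured and all lower on day 1 as deposited, beside 56.7% of all measured genes, none by as much as 2-fold at the probe set used, with log2 ratios from -0.94 to -0.37. St3gal4, which sialylates lactosamine and is known from knockout mice as the enzyme of the other milk sialyllactose, had 884.7 on day 1 and 1605.9 on day 0 (1.82-fold lower). St3gal1, which caps core 1 O-glycans, had 510.7 on day 1 and 789.0 on day 0, and its other probe set was at least 2.38-fold lower. St3gal3, another lactosamine enzyme, had 271.9 on day 1 and 522.9 on day 0, the nearest of this family to 2-fold (1.92-fold lower). St3gal5, the synthase of the ganglioside GM3, had 97.3 on day 1 and 138.0 on day 0, and St3gal2 had 78.8 on day 1 and 103.5 on day 0, just above the floor. St3gal6 had 107.2 on day 1 and 138.3 on day 0, but its other measured probe set had 129.5 on day 1 and 43.8 on day 0 and pointed the other way. The family median of -0.57 log2 was 0.60 on the hybridisation controls.

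Signals of the St8sia genes, which add sialic acid to sialic acid and are best known from brain, lay near the floor. St8sia6, which acts on O-glycans, had 103.9 on day 1 and 245.1 on day 0 and was 2.36-fold lower, and its other measured probe set gave only a bound of 1.16-fold. St8sia1, the GD3 synthase, had 17.4 on day 1 and 132.1 on day 0, and St8sia2, a polysialic acid synthase, had 19.7 on day 1 and 140.9 on day 0. With day 1 at the floor the bounds are 1.70-fold and 1.81-fold lower. St8sia4, the other polysialic acid synthase, had 172.2 on day 1 and 179.7 on day 0, and St8sia5 had 102.3 on day 1 and 119.7 on day 0. The family median was -0.77 log2, and -0.075 on the hybridisation controls. St8sia3 and, among the St6gal genes, St6gal2 were not measured.

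Probe sets of the same gene give the only measure of spread in these data, and it describes probes and not mice. Of the 56 measured genes, 29 had several measured probe sets. In 5 of them (Galnt7, Gcnt2, Mgat4a, B4galt7 and St3gal6) another measured probe set had a log2 ratio of opposite sign, 0.5 or more from 0. This held for 1118 of 5672 genes with several measured probe sets over the whole array. Over the 9 members with several probe sets that exceeded the floor on each day, the pooled SD of the log2 ratios within a gene was 0.70, against 0.56 over 3943 genes of the whole array. Galnt7, which prefers glycosylated peptides, had 754.8 on day 1 and 603.5 on day 0 at the probe set used and 428.3 on day 1 and 652.0 on day 0 at another.

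**Figure D3:**
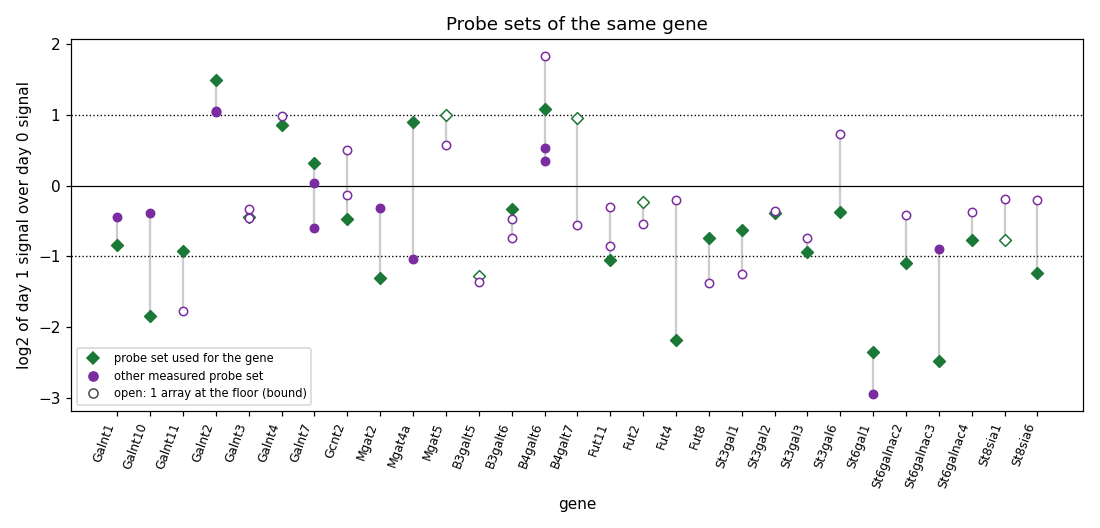
Ratio of day 1 over day 0 (log2) for every measured probe set of the 29 genes with several, by gene; green diamonds are the probe sets used for the gene, purple circles the others, open symbols are bounds with 1 array at the floor, and dotted lines mark 2-fold. Both St6gal1 probe sets lie at -2.35 and below, whereas those of Mgat4a lie at 0.91 and -1.03.

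Genes that supply the sugar donors were also mostly lower on day 1. Of 21 measured genes in 4 lists (sialic acid, fucose, UDP-GlcNAc and UDP-galactose supply), 5 (23.8%) were at least 2-fold lower, beside 13.3% of all measured genes, and 0 were at least 2-fold higher, beside 10.4%. Their median was -0.51 log2, and 0.66 on the hybridisation controls. Gne, the enzyme that commits UDP-GlcNAc to sialic acid, had 337.6 on day 1 and 1639.1 on day 0 and was 4.86-fold lower. Nans, the sialic acid synthase, had 1096.6 on day 1 and 2404.7 on day 0 and was 2.19-fold lower, but was 0.03 log2 in the other direction on the hybridisation controls. Cmas, which activates sialic acid to CMP-sialic acid, differed from these, with 6015.1 on day 1 and 3262.1 on day 0 (0.88 log2). Nanp and the CMP-sialic acid transporter Slc35a1 had log2 ratios of -0.87 and -0.47.

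For the other donors, Slc35c2, which belongs to the nucleotide sugar transporter family and affects Notch fucosylation, had 155.2 on day 1 and 497.8 on day 0 and was 3.21-fold lower. The UDP-galactose transporter Slc35a2, also a gene of lactose synthesis, had 1013.5 on day 1 and 2712.3 on day 0 and was 2.68-fold lower. Pgm3, an enzyme of UDP-GlcNAc synthesis, had 116.1 on day 1 and 279.4 on day 0 and was 2.41-fold lower. Of the 7 UDP-GlcNAc genes, 5 had a log2 ratio below 0 and 2 above it, Uap1l1 (0.80) and Gnpnat1 (0.31). Of the 3 UDP-galactose genes, 2 were below 0 and Galt was above it (0.50). The UDP-galactose median of -0.51 log2 was 0.19 without shared probe sets. Fpgt, an enzyme of fucose salvage, had 272.8 on day 1 and 502.8 on day 0 (-0.88 log2), and the other GDP-fucose genes Gmds, Gfus, Slc35c1 and Fcsk had log2 ratios of -0.28, 0.067, -0.19 and -0.021.

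N-glycan trimming genes showed no common direction, and past 2-fold 2 of 9 were higher, beside 10.4% of all measured genes, and 1 lower, beside 13.3%. The mannosidase genes Man1a and Man1c1 had 993.6 and 1118.1 on day 1 against 434.1 and 513.1 on day 0 (2.29-fold and 2.18-fold higher), and Man1a2 had 292.1 on day 1 against 656.5 on day 0 (2.25-fold lower). Measured probe sets ranged from 0.40 to 1.19 log2 for Man1a and from -1.25 to -0.39 log2 for Man1a2. The core 1 synthase C1galt1 and its chaperone C1galt1c1 had log2 ratios of 0.07 and -0.83. Of 8 measured transferase genes of related families outside the rule, 2 were past 2-fold higher, beside 10.4%, and 0 past 2-fold lower, beside 13.3%. B4galnt1, which makes GM2 and GD2 gangliosides, had 2349.1 on day 1 and 593.0 on day 0 and was 3.96-fold higher, although the lowest of its probe sets had -0.41 log2. B3galnt1, the globoside synthase, had 183.3 on day 1 and 91.3 on day 0 (2.01-fold higher).

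Past 2-fold, 2 of 11 glycan breakdown genes were higher, beside 10.4% of all measured genes, and 1 lower, beside 13.3%. The lysosomal enzymes Gla and Manba had 307.9 and 282.7 on day 1 and were at the floor on day 0, which leaves bounds of 3.96-fold and 3.64-fold higher. The sialidase gene Neu2 had 90.1 on day 1 and 211.8 on day 0 (2.35-fold lower), and the main lysosomal sialidase Neu1 had 1436.1 on day 1 and 930.0 on day 0 (0.63 log2). Among 20 measured genes of Golgi structure and enzyme retention, 18 (90%) had a log2 ratio below 0, beside 56.7% of all measured genes, and the median was -0.28. Past 2-fold, 2 (10%) were higher, beside 10.4%, and 4 (20%) lower, beside 13.3%. Tmem165, a Golgi ion transporter needed for normal glycosylation, had 2436.0 on day 1 and 14190.2 on day 0 and was 5.83-fold lower. Golph3, Gorasp1 and Cog8, which retain enzymes, shape the stacks and tether vesicles, were 2.37-fold, 2.32-fold and 2.31-fold lower, and Glg1 and Golim4 2.03-fold and 2.07-fold higher, with another Glg1 probe set at -0.080 log2 and another Cog8 probe set at -0.30 log2. The median of the Golgi list was 0.15 with ribosomal protein scaling and 0.89 on the hybridisation controls.

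**Figure D4:**
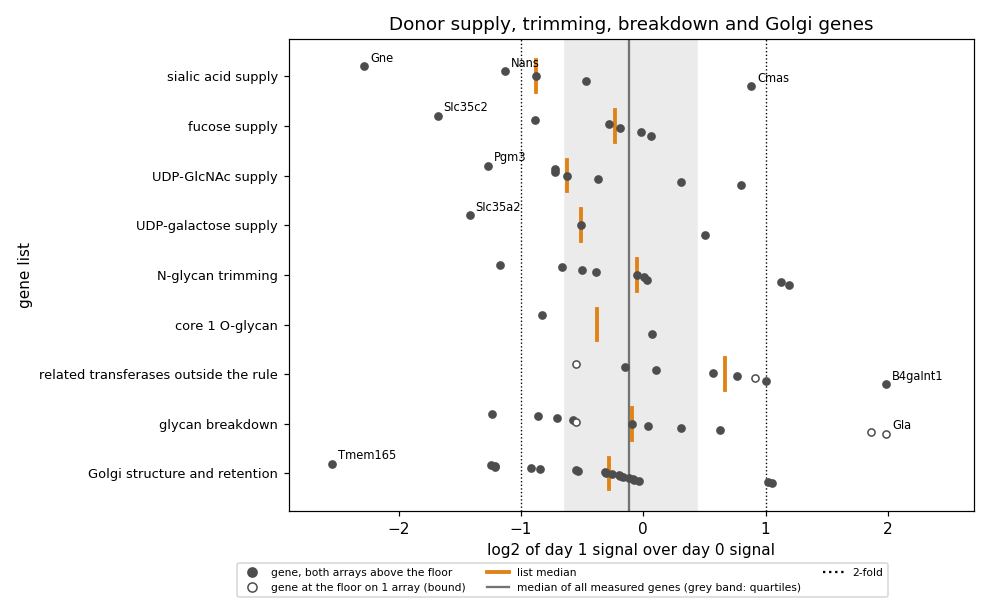
Ratio of day 1 over day 0 (log2) of measured genes (points) in 9 lists of donor supply, trimming, extension, breakdown and Golgi genes, with the list median (orange bar), the median (grey line) and quartiles (grey band) of all measured genes, open points for bounds and dotted lines at 2-fold. Gne (-2.28) and Tmem165 (-2.54) lie farthest to the left, and B4galnt1 (1.99) and Gla (at least 1.99) farthest to the right.

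Markers of the cells of the gland also differed between these arrays. The shares past 2-fold over all measured genes were 10.4% higher and 13.3% lower. All 10 secretory alveolar markers, most of them milk protein genes near the top of the signal range, were at least 2-fold lower on day 1 (summed signal of measured genes 315701.6 on day 1 and 785824.1 on day 0) and mark the labelled tissue on both days. The highest signals of any probe set were 40090.2 on day 1 and 108570.5 on day 0. Whether an upper limit of the signal shaped the ratios of these 10 markers was not tested. The median of the 10, -1.28 log2, was -0.053 after quantile normalization, -0.56 after loess and -0.11 on the hybridisation controls. Luminal epithelial markers were at least 2-fold higher in 7 of 9 measured genes and lower in 1 (90062.7 on day 1, 41504.4 on day 0), with Prom1 not measured. Macrophage markers were higher in 4 of 7 (35483.9 on day 1, 7794.4 on day 0, or 6473.3 on day 1, 3977.6 on day 0 without Cd14), with Itgam not measured, and lymphocyte and plasma cell markers in 5 of 9, with 1 lower (11442.2 on day 1, 9760.3 on day 0). Without Jchain the lymphocyte and plasma cell sums were 3038.1 on day 1 and 1491.2 on day 0. Myoepithelial markers were 2-fold different in 0 of 8 (20814.1 on day 1, 19562.7 on day 0). Adipocyte markers were so in 0 of 6 (20630.1 on day 1, 19340.6 on day 0). Without Fabp4 the adipocyte sums were 5591.9 on day 1 and 6471.6 on day 0. Fibroblast markers were higher in 1 of 7 (23225.9 on day 1, 18820.1 on day 0). Endothelial markers were lower in 1 of 6 (1417.1 on day 1, 1799.0 on day 0), with Vwf not measured, and neutrophil markers higher in 1 of 3 (586.0 on day 1, 367.6 on day 0), with Cxcr2 and Elane not measured. The part of these cells in the ratios of the glycosyltransferases was not tested.

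**Figure D5:**
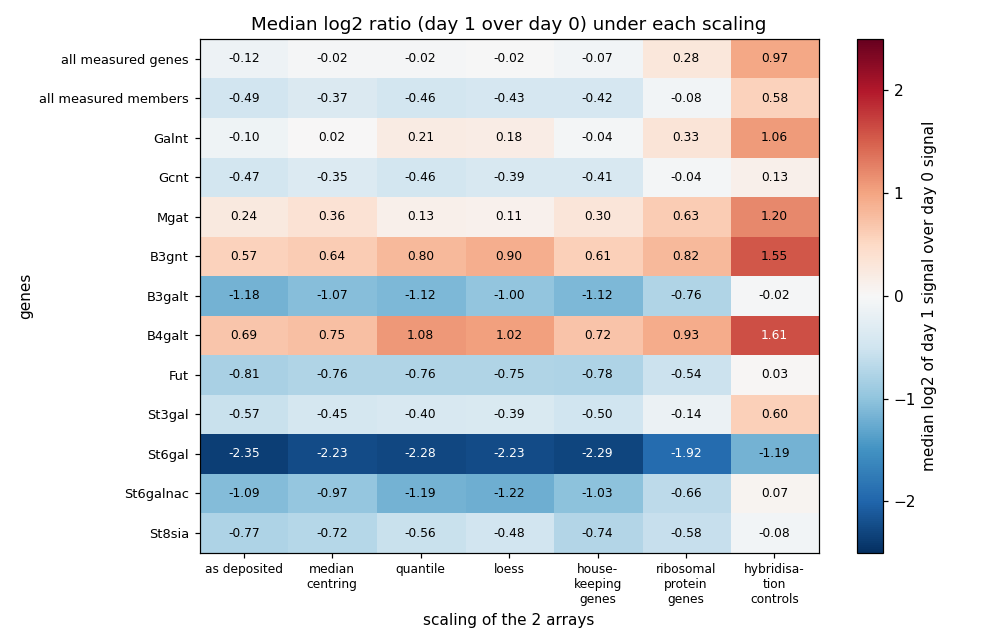
Median log2 ratio of day 1 over day 0 (colour and printed value) for all measured genes, for all measured members and for each family, as deposited and under 6 other scalings of the 2 arrays. St6gal is negative in every column (-2.35 to -1.19) and B4galt positive in every column (0.69 to 1.61), whereas Fut, St3gal and St6galnac are negative except on the hybridisation controls (0.034, 0.60 and 0.075).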

How the data were processed

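Mouse mammary gland RNA was measured on 2 Affymetrix Mouse Genome 430 2.0 arrays. These were 1 for day 1 and 1 for day 0 of involution, each a pool of 5 mice. The deposited values are MAS 5 signals, a linear intensity per probe set that the authors made with Microarray Suite 5.0, per the labels. They do not name a scaling target, but both arrays have the same trimmed mean of 250.001 (2% cut at each end), and any difference that alters this mean enters every ratio. Detection calls were not used here.

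Of 45037 probe sets, 34945 had 1 symbol in the platform annotation, 932 several and 9160 none. Symbols of 34741 were found in RefSeq (GRCm38.p6, names only). Signals below the floor of 77.7 were raised to it, and log2 of day 1 over day 0 was taken. Each gene was represented by its probe set with the highest mean signal. With 1 array per day there is no test, and the number of arrays limits the precision. Genes named were members at least 2-fold different, the 2 members per family with the highest mean signal, members whose probe sets disagree and, from the other lists, genes at least 2-fold different; values of further members, and of list genes short of 2-fold chosen after their values were seen, complete the groups. Members and lists were chosen with earlier results of these data known. Promoter windows were printed in place of proteins, for which no table was used here. Overlapping windows on opposite strands matched as reverse complements in 1627 of 1627 cases. The calculation was checked on simulated data. Python 3.11.15, numpy 2.4.6, pandas 2.3.3, statsmodels 0.14.6 and matplotlib 3.10.9 were used. Alternatives were 6 scalings, 2 other floors, a pseudocount of 16, other choices of probe set, and thresholds of 1.5-fold and 3-fold.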

Additional observations from a re-analysis of the deposited data

How the results depend on the processing

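No paired analysis was possible because there is 1 array per day and no result comes from a test. The count of higher members, 5 as deposited, was 8 after median centring, loess or with a pseudocount of 16, 10 with ribosomal protein scaling, 16 on the hybridisation controls, 9 with a floor at the 25th percentile, 3 with the mean of measured probe sets, 10 at 1.5-fold and 0 at 3-fold. The count of lower members, 13 as deposited, was 7 with ribosomal protein scaling, 4 on the hybridisation controls, 24 and 5 with floors at the 25th and 75th percentile, 25 at 1.5-fold and 6 at 3-fold. Other settings moved these counts by less than 1.5 times. The median of the members, -0.49, was 0.58 on the hybridisation controls. Many other values also changed sign there, including the St6galnac median (0.075), St6galnac2 (0.075), Fut11 (0.11) and Nans (0.03). The medians of Galnt (1.06), Gcnt (0.13), Fut (0.034) and St3gal (0.60) did so too. Further cases were the supply lists together (0.66), the Golgi list (0.89), Galnt3 (0.71), Fut8 (0.41) and St3gal4 (0.30). Of the 18 members at least 2-fold different, all with a value kept their direction in the other 10 settings, and 9 (hybridisation controls, or a floor at the 75th percentile) to 18 kept both direction and 2-fold size. A signal near the floor limits what a ratio can show, and 17 of the 56 measured members have only a bound.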
